A study of Homo sapiens with 12 samples.

Results

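Pfeiffer is an established human lymphoma cell line (diffuse large B cell lymphoma of the germinal centre type) that carries an activating change in the SET domain of EZH2, and the labels call it phenotypically responsive to EZH2 inhibition. The comparison set 2 libraries of cells given 1.5 µM GSK343, an EZH2 inhibitor, against 2 libraries of cells given 0.1% DMSO, the vehicle. Compound or vehicle was present from seeding, RNA was taken after 4 days, and all 4 libraries come from the same line with the same EZH2 change. The comparison asks which transcripts changed when the catalytic function of EZH2 was inhibited. Cells were lysed in Trizol or RLT buffer, and the labels do not say which library had which. They also do not say whether the 2 libraries of a group came from separate cultures, so p-values reflect library-to-library spread alone, and that spread may be technical. Pfeiffer is 1 line, and nothing here separates the line from its EZH2 change.

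Of 63052 genes with a value in every library, 16095 reached 1 FPKM in at least 2 of the 4 Pfeiffer libraries and are described here. FPKM is the number of fragments scaled to transcript length and to the mapped fragments of the library. Of these genes, 14580 reached 1 FPKM in all 4 libraries, 417 only in both GSK343 libraries and 211 only in both DMSO libraries, and the last 2 sets therefore had to differ. The second-highest of the 4 values lay between 1 and 1.1 FPKM for 332 genes just inside this limit and between 0.9 and 1 for 340 just outside it. Counts over a gene list are of its members that reached the limit. By GENCODE class, 10908 were protein-coding and 2821 were processed pseudogenes.

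EZH2 is the catalytic subunit of Polycomb repressive complex 2 (PRC2), which methylates lysine 27 of histone H3 and thereby keeps genes silent. In germinal centre B cells, which divide quickly while they diversify their antibody genes, EZH2 is highly expressed and holds down cell cycle brakes and genes of memory and plasma cell differentiation. GSK343 competes with the methyl donor and leaves the EZH2 protein in place, so the amount of EZH2 mRNA is not a check of target engagement.

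The FPKM sums of the 4 libraries ran from 524701 to 628281, and the depth relative to the first DMSO library, read from the steps between low values, ran from 1 to 1.35. The absolute depth is unknown. The 2 DMSO libraries correlated at Pearson's r = 0.9951 across the 16095 genes and the 2 GSK343 libraries at 0.9615; genes are not independent replicates. The median of all genes shifted by -0.12 in GSK343 library 1 and -0.03 in library 2 relative to DMSO on the log2(FPKM + 1) scale. All 5 B cell markers were detected, from CD79A, a chain of the B cell receptor, at 11.1 to 17.6 FPKM to its partner CD79B at 1320 to 1560 FPKM. MS4A1, which encodes CD20, was 993 and 905 FPKM with DMSO and 985 and 588 with GSK343. All 14 myeloid markers were under 1 FPKM in every library. Of 20 T and NK cell markers 14 were under 1 FPKM in all 4, but CD8A was at 297 to 412 FPKM and CD247 at 53.2 to 60.2. Of 16 epithelial and stromal markers 10 were under 1 FPKM, while EPCAM was 134 and 135 FPKM with DMSO and 49.8 and 66.7 with GSK343. The summed level of T and NK markers was 490 and 492 FPKM with DMSO and 370 and 468 with GSK343. That of epithelial and stromal markers was 143, 145, 67.0 and 88.3 in the same order.

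Differences were computed on log2(FPKM + 1), a scale that understates the change of low genes. A gene is called changed where the limma fit gave a Benjamini-Hochberg adjusted p under 0.05. With GSK343, 2079 genes (12.9% of those described) were called higher and 3248 (20.2%) lower. Of the genes called higher, 2078 had both GSK343 libraries above both DMSO libraries, and of those called lower, 3247 had both below. At least 2-fold from the DMSO mean in both GSK343 libraries were 148 genes (0.920%) on the higher side and 345 genes (2.14%) on the lower side, and all of these were called.

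The balance of higher and lower calls moved with the scaling of the libraries: 39.0% of calls were higher as deposited, 51.0% after quantile normalization, 52.7% after scaling to the median and 61.5% among protein-coding genes rescaled to 1 sum. The number of calls moved with the libraries fitted. With the 4 Pfeiffer libraries alone, where the spread rests on 2 pairs, 257 genes were called higher and 552 lower. That fit called 0 genes of the developmental Polycomb target, B cell identity, respiratory chain, heat shock, unfolded protein response and housekeeping lists, of which 5, 7, 9, 11, 5 and 10 had an unadjusted limma p under 0.05. Without DMSO library 1 the counts were 1167 and 1785, and without DMSO library 2 they were 1391 and 2079.

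Each GSK343 library was also set against the DMSO pair on its own. A single library has no spread of its own, so only sizes of change are given for it. By fold, 357 genes were at least 2-fold higher and 511 at least 2-fold lower in library 1, against 659 and 759 in library 2. The root mean square log2 difference from DMSO was 0.497 in library 1 and 0.632 in library 2. It was 0.514 between the GSK343 libraries and 0.191 between the DMSO libraries. Both GSK343 libraries are measured from the same DMSO libraries, so their values are given side by side and no correlation between them is drawn.

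**Figure D1:**
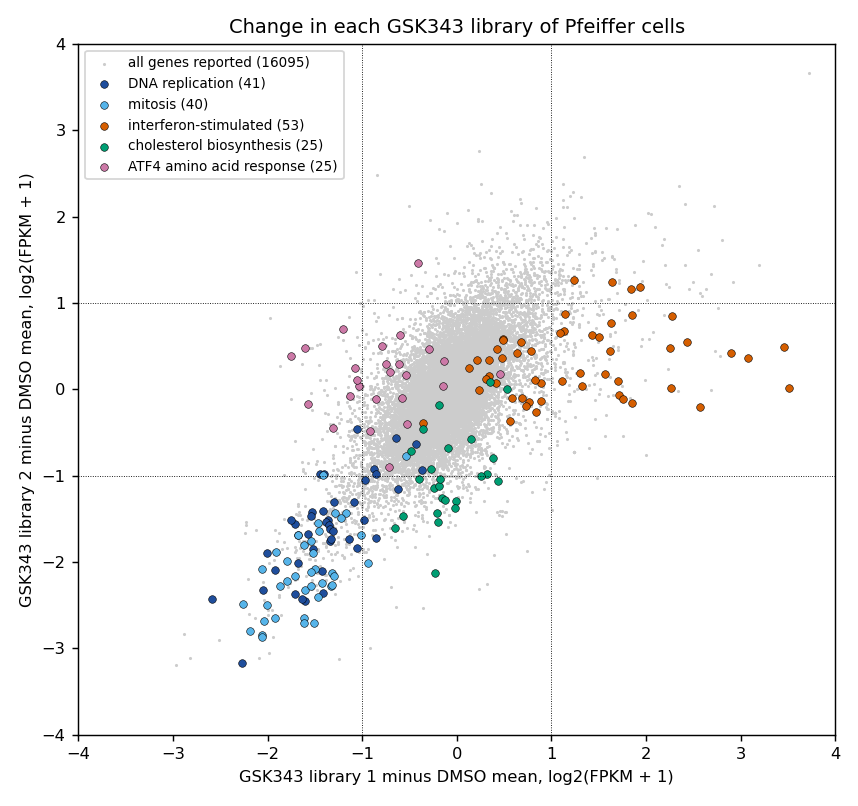
Change of each gene in GSK343 library 1 (horizontal axis) and GSK343 library 2 (vertical axis) from the mean of the 2 DMSO libraries, on log2(FPKM + 1); grey points are the 16095 genes, coloured points the members of 5 gene lists, and dotted lines mark 2-fold. Replication and mitosis genes lie low in both libraries, interferon-stimulated genes spread to the right, cholesterol biosynthesis genes spread downward and amino acid response genes spread to the left; 7 genes lie outside the plotted range.

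Genes of the PRC2 complex itself were measured first. EZH2 (chr7:148504475-148581413, hg19) was 31.6 and 30.8 FPKM with DMSO and 13.8 and 20.9 with GSK343. Both GSK343 values were below both DMSO values, and EZH2 fell (log2 difference -0.84, SE 0.143, limma adjusted p = 0.00169). The core subunit genes EED and SUZ12 also fell, by 0.45 and 0.35 on the log2 scale, with calls that were lost without either DMSO library. JARID2, which encodes an accessory subunit that helps recruit the complex, rose from 1.06 and 1.01 FPKM to 2.71 and 2.50. EZH1, the paralog of EZH2 that predominates in resting cells, was 12.3 and 13.1 FPKM with DMSO and 14.3 and 27.5 with GSK343. It did not pass (limma adjusted p = 0.0509). Of 11 PRC2 genes 1 was called higher (9.09%, background 12.9%) and 6 lower (54.5%, background 20.2%). The lower share of 23 housekeeping genes was 47.8%. The PRC2 median log2 difference was -0.25, against -0.08 over all genes described and -0.35 over the housekeeping genes. With Pfeiffer fitted alone 1 PRC2 gene was called higher and 0 lower. With median scaling 3 were higher and 4 lower, and after quantile normalization 2 were higher and 3 lower.

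Developmental regulators are the classical Polycomb targets. Of 61 such genes listed, 17 reached the limit on low values. Of these 5 were called higher (29.4%, background 12.9%) and 1 lower (5.88%, background 20.2%). With Pfeiffer fitted alone limma called 0, and 5 had an unadjusted p under 0.05. With a minimum of 5 FPKM 6 remained, of which 0 were called higher and 1 lower. WNT5A, a secreted signalling protein, was 2.44 and 2.19 FPKM with DMSO and 4.84 and 11.4 with GSK343. GATA4, a transcription factor of heart and endoderm, was at 0.833 and 0.710 with DMSO and 1.58 and 1.65 with GSK343. WNT5A rose (log2 difference 1.36, limma adjusted p = 0.0025), while GATA4 reached the limit on low values only through the GSK343 libraries and so had to be higher. The list median was 0.17 in GSK343 library 1 and 0.19 in library 2. CREBBP, the acetyltransferase that places the opposing mark on the same lysine, rose from 9.89 and 10.8 FPKM to 17.0 and 20.

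Genes that copy DNA fell in both GSK343 libraries. Replication begins when the MCM helicase is loaded on origins and is activated by CDC45 and the GINS complex. All 41 replication licensing and fork genes were called lower, against 20.2% of all genes, and each lay below both DMSO libraries in both GSK343 libraries. The median log2 difference was -1.38 in library 1 and -1.57 in library 2, and 29 genes were at least 2-fold lower in both. MCM2, a subunit of the helicase, was 64.1 and 71.4 FPKM with DMSO and 22.9 and 24.7 with GSK343. MCM6, another subunit, was 70.8 and 72.1 with DMSO and 27.1 and 24.4 with GSK343. The GSK343 libraries lay close together for both genes, which fell by 1.47 and 1.44 on the log2 scale (SE 0.0797 and 0.0795; limma adjusted p = 1.78e-06 for each). GINS2 showed the wider spread, from 54.4 and 56.7 FPKM to 10.7 and 5.29. PCNA, the sliding clamp of the polymerases, was 164 and 156 FPKM with DMSO and 48.1 and 30.0 with GSK343. With the 4 Pfeiffer libraries fitted alone, 34 of the 41 were still called lower.

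E2F factors switch on replication genes as cells enter S phase, and the promoters of the helicase genes MCM6 and MCM2 are shown because they hold the E2F motif. The sequences are from RefSeq on GRCh38.p14, from 250 bases before to 50 bases after the gene start, read along the strand of the gene, with the motif in capitals. MCM6 is on the minus strand of chr2:135876394-135876693 and MCM2 on the plus strand of chr3:127598161-127598460.
MCM6: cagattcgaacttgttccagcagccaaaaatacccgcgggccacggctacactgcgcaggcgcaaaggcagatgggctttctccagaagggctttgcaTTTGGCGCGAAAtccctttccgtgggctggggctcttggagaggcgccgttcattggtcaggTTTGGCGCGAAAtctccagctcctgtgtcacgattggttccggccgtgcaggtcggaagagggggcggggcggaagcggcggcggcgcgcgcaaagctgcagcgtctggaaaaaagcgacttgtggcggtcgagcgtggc
MCM2: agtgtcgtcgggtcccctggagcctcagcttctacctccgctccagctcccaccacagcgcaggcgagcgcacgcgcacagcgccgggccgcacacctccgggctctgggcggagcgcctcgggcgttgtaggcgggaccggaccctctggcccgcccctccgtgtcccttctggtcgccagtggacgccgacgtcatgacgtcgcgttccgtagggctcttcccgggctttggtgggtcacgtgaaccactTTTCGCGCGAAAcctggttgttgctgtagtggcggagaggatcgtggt
The E2F motif was searched as TTTCGCGC, TTTGGCGC or TTTCCCGC on both strands, with overlapping matches kept. It was found in 17 of the 35 replication genes that had an entry in the promoter table (48.6%). The share was 4.9% of 9270 promoters of the genes described and 2.79% of all 27305 promoters in the table. Among genes at least 2-fold lower in both GSK343 libraries 47 of 226 promoters held it (20.8%), and among those at least 2-fold higher in both 5 of 100 did (5.0%). A match says only that these letters are present.

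Enzymes that supply nucleotides fell with the replication genes. RRM2, the regulated subunit of ribonucleotide reductase, was 60.6 and 54.5 FPKM with DMSO and 15.1 and 8.54 with GSK343. Thymidine kinase TK1 was 106 and 108 with DMSO and 25.3 and 20.2 with GSK343. Both fell by more than 2-fold in each library (log2 differences -2.24 and -2.20, limma adjusted p = 2.36e-05 and 9.8e-07). Of 18 nucleotide supply genes 13 were called lower (72.2%, background 20.2%) and 0 higher. The medians were -0.91 in library 1 and -0.56 in library 2, and with Pfeiffer fitted alone 6 were called lower. Thymidylate synthase TYMS fell by 1.96 on the log2 scale.

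Mitosis genes, which build the spindle, attach chromosomes and divide the cell, fell further. All 40 were called lower (36 with Pfeiffer fitted alone), with medians of -1.54 in library 1 and -2.14 in library 2, and 38 of 40 had the lower value in library 2. KIF20A, a kinesin of the dividing cell's midzone, was 25.8 FPKM in both DMSO libraries and 5.42 and 2.74 with GSK343. PTTG1, the securin that guards chromosome separation, was 150 and 121 with DMSO and 31.5 and 17.6 with GSK343. KIF11, the motor that separates the spindle poles, was 18.5 and 19.0 with DMSO and 5.19 and 5.14 with GSK343, nearly equal in both GSK343 libraries. ANLN, a scaffold of the contractile ring, was 12.1 and 11.4 with DMSO and 2.06 and 2.00 with GSK343 (log2 difference -2.07, SE 0.0911, limma adjusted p = 6.96e-07). MKI67, the proliferation marker Ki-67, fell from 30.7 and 34.1 FPKM to 8.84 and 6.07.

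Genes of late cell cycle phases carry the CHR element near their start, and the promoters of ANLN and KIF11 show it, on the plus strands of chr7:36389612-36389911 and chr10:92592880-92593179 (RefSeq, GRCh38.p14), with the element in capitals.
ANLN: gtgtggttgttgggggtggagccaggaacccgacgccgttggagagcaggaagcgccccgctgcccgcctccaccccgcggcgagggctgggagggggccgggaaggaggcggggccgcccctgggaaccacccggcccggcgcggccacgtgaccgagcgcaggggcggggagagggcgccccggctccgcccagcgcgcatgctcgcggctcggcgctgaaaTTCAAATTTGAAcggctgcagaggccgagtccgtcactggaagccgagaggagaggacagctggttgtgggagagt
KIF11: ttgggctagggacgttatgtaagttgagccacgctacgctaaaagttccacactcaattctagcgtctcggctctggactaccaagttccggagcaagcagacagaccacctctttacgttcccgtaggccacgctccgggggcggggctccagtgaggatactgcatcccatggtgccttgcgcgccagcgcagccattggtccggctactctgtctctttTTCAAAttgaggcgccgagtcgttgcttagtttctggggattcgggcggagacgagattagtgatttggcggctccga
The element was searched as TTTGAA or TTTAAA on both strands. It was present in 28 of 34 mitosis promoters (82.4%), in 15.4% of promoters of the genes described and in 24.3% of all promoters in the table. The CCAAT box was present in 25 of the 34 mitosis promoters (73.5%), against 37.9% of those of the genes described. Only 1 of 35 replication promoters held the CHR element, and 3 of 34 mitosis promoters held the E2F motif.

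Homologous recombination repairs breaks at replication forks with the sister chromatid as template. Of 29 homologous recombination and Fanconi genes 26 were called lower (89.7%, background 20.2%) and 0 higher. With Pfeiffer fitted alone 17 were called lower. Among the 26, 1 reached the limit on low values only through the DMSO libraries and so had to be lower. MND1, a cofactor of strand exchange, had the lowest log2 difference among genes picked for change in both libraries: it was 38.0 and 31.2 FPKM with DMSO and 3.53 and 2.88 with GSK343 (-3.08, SE 0.136, limma adjusted p = 6.96e-07). BRCA1 was 31.5 and 33.3 with DMSO and 11.6 and 10.5 with GSK343, and RAD54L, a motor of strand exchange, was 13.9 and 15.5 with DMSO and 3.21 and 3.65 with GSK343. All 4 values of each gene separated by treatment. The helicase gene BLM did so less evenly, at 61.8 and 60.4 FPKM with DMSO and 20.6 and 51.8 with GSK343. Its call was lost without any 1 of DMSO library 1, DMSO library 2 or GSK343 library 1.

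The remaining genes of the 15 lowest were PBK, PNMAL1, C12orf75, CHEK1, WDR76, CDC45, SPC25, KIAA0101, HMGB2, CCNA2 and NUF2 beside those above, with log2 differences of -2.97 to -2.37. Most are known from replication or mitosis: CHEK1 is the checkpoint kinase of stalled forks, CCNA2 is cyclin A2, and SPC25 and NUF2 are kinetochore subunits. PNMAL1 was 17.2 and 17.0 FPKM with DMSO and 1.45 and 1.54 with GSK343, close together within each group. IL4, which encodes the cytokine interleukin 4 and was picked once its values were known, stood at 60.6 and 50.2 FPKM with DMSO and 22.6 and 15.6 with GSK343 (log2 difference -1.51, limma adjusted p = 6.69e-05).

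**Figure D2:**
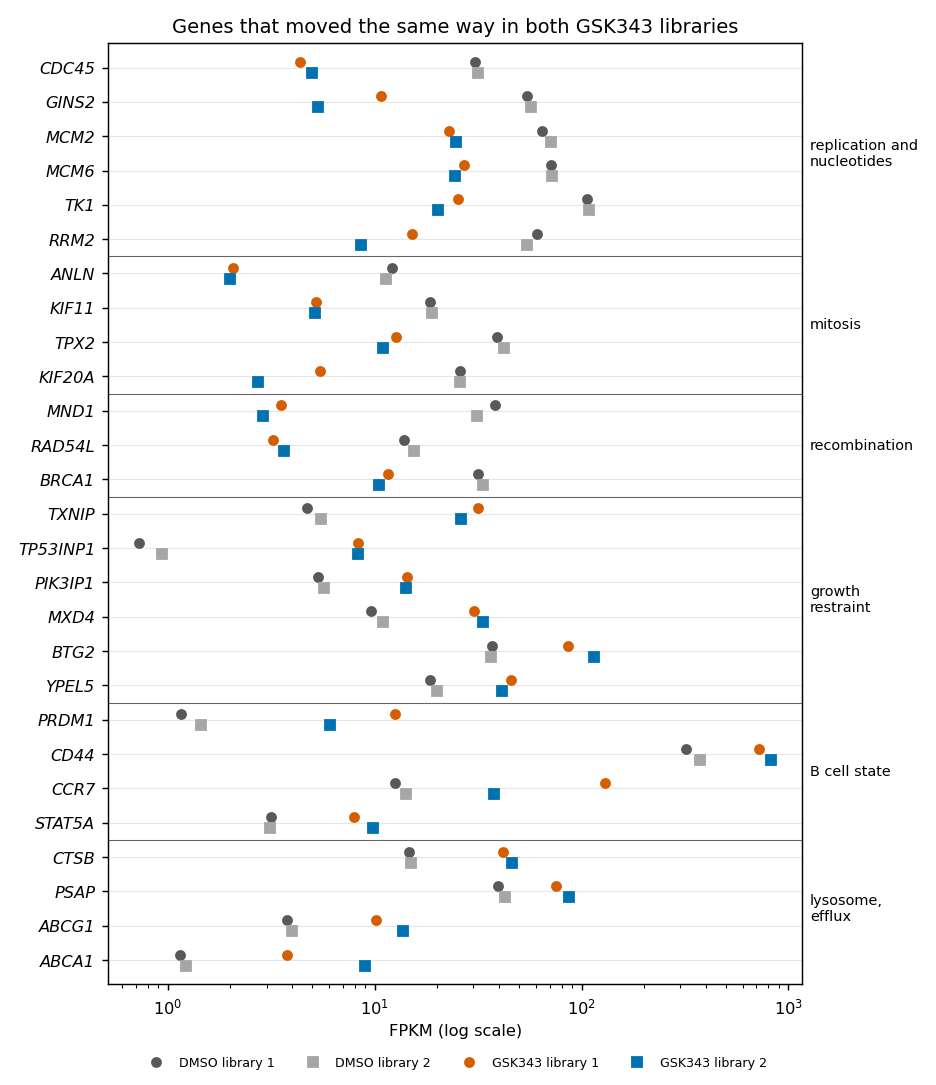
FPKM of 27 named genes in each of the 4 Pfeiffer libraries on a log axis; grey marks are the DMSO libraries and coloured marks the GSK343 libraries (circle, library 1; square, library 2). The genes were chosen for moving the same way in both GSK343 libraries, so in every row both coloured marks lie on the same side of both grey marks. Examples are MND1 (38.0 and 31.2 against 3.53 and 2.88) and TXNIP (4.73 and 5.53 against 31.5 and 26.2).

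Regulators at the G1 to S boundary moved with the effector genes, while the classical inhibitors did not move together. Of 21 G1 cyclins, E2F factors and pocket proteins 13 were called lower (61.9%, background 20.2%) and 1, CCND1, higher (4.76%, background 12.9%). Among the 13, 1 reached the limit on low values only through the DMSO libraries and so had to be lower. The activator E2F1 was 17.1 and 17.5 FPKM with DMSO and 4.61 and 3.98 with GSK343. CDK2 was 39.9 and 39.7 with DMSO and 16.7 and 16.2 with GSK343. CDK6, which pairs with D cyclins, was 11.1 and 12.6 with DMSO and 12.6 and 33.3 with GSK343 and did not pass. Among 6 cyclin-dependent kinase inhibitor genes, CDKN3 and CDKN2D were lower and 4 were not called. CDKN1A, which encodes p21, went opposite ways: 10.1 and 9.97 FPKM with DMSO, 21.1 in GSK343 library 1 and 3.18 in library 2 (limma adjusted p = 0.822). CDKN1B was 6.26 and 5.73 with DMSO and 8.05 and 6.86 with GSK343, and CDKN2A was 30.5 and 24.2 with DMSO and 32.0 and 26.3 with GSK343; neither passed (limma adjusted p = 0.0588 and 0.816).

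Most genes linked to FOXO factors and to resting cells rose. TXNIP, which restrains glucose uptake and binds thioredoxin, was 4.73 and 5.53 FPKM with DMSO and 31.5 and 26.2 with GSK343 (log2 difference 2.28, SE 0.112, limma adjusted p = 9.15e-07). TP53INP1, a growth-restraining p53 and FOXO target, was 0.729 and 0.933 with DMSO and 8.31 and 8.32 with GSK343. It reached the limit on low values only through the GSK343 libraries and so had to be higher. The GSK343 libraries were close to each other for both genes. TP53INP1 is counted with the p53 targets below. Of 22 FOXO and quiescence-linked genes 14 were called higher (63.6%, background 12.9%) and 0 lower. Among the 14, 1 reached the limit only through the GSK343 libraries and so had to be higher. The list medians were 0.69 in library 1 and 0.72 in library 2, and with Pfeiffer fitted alone 5 genes were called. PIK3IP1, an inhibitor of PI3-kinase, rose from 5.33 and 5.67 FPKM to 14.3 and 14.2, and PDCD4, a brake on translation, from 133 and 121 to 231 and 263. FOXO1 itself rose from 4.13 and 4.57 to 7.95 and 10.9. The antiproliferative gene BTG1 rose unevenly, from 39.1 and 40.2 FPKM to 138 in library 1 and 70.2 in library 2.

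MYC drives ribosome production and competes with MXD proteins for their common partner MAX. MYC was 73.3 and 78.1 FPKM with DMSO and 66.9 and 105 with GSK343. It did not pass (limma adjusted p = 0.548). MXD4 rose from 9.64 and 11.0 FPKM to 30.2 and 33.2, whereas MXD3, a family member tied to proliferation, fell from 24.3 and 20.6 to 6.35 and 5.06. MXD1, at 0.796 and 0.714 with DMSO and 2.33 and 1.73 with GSK343, reached the limit only through the GSK343 libraries and so had to be higher. Of 32 MYC and ribosome biogenesis genes 2 were higher and 7 lower (21.9%, near the 20.2% of all genes), and the list median of -0.12 lay near that of all genes. The counts were 2 and 4 without DMSO library 1 and 3 and 3 after quantile normalization. Of the 50 cytosolic ribosomal protein genes limma called 0, and 2 had an unadjusted p under 0.05. The 2 GSK343 libraries differed here, with list medians of -0.02 in library 1 and -0.33 in library 2. Below both DMSO libraries were 11 of the 50 in library 1 and 45 in library 2.

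Histone genes split in both directions. Replication-dependent histones are made in S phase from messages without a poly(A) tail, and some of them also give polyadenylated messages in resting or differentiating cells. Of 48 such genes 9 were called higher (18.8%, background 12.9%) and 23 lower (47.9%, background 20.2%). However, 8 of the 23 reached the limit on low values only through the DMSO libraries and so had to be lower. Likewise 1 of the 9 reached it only through the GSK343 libraries and had to be higher. The balance moved with the genes tested: with a minimum of 5 FPKM 11 remained, of which 5 were called higher and 2 lower, with the median log2 difference at 0.67 in place of -0.41. Among protein-coding genes rescaled to 1 sum 22 remained, with 6 higher, 7 lower and a median of 0.03. The counts were 7 and 17 without DMSO library 1 and 5 and 20 without DMSO library 2. HIST1H1B, a linker histone, was 6.54 and 7.12 FPKM with DMSO and 1.71 and 0.660 with GSK343. HIST1H4L, 1 of the 8, was 1.87 and 1.94 with DMSO and 0.275 and 0.229 with GSK343. HIST1H2AC went the other way, from 8.26 and 8.16 FPKM to 47.9 and 24.0 (log2 difference 1.92, limma adjusted p = 0.000276), and HIST1H2BK from 21.1 and 19.5 to 68.1 and 45.2. The value was higher in library 1 than in library 2 for 46 of the 48 genes. Structured noncoding RNAs, most of them also without a poly(A) tail, were higher in library 1 than in library 2 for all 25 that reached the limit on low values. Their summed level was 8030 and 7580 FPKM with DMSO and 11500 and 3580 with GSK343. Its part in the histone values was not tested. Genes of near-identical sequence such as these share reads, so single histone values are uncertain.

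Single regulators of B cell state behaved differently. PRDM1, which encodes BLIMP1, the regulator of plasma cell differentiation, was 1.16 and 1.44 FPKM with DMSO and 12.5 and 6.05 with GSK343 (log2 difference 2.08, SE 0.224, limma adjusted p = 9.22e-05). Both GSK343 libraries were above both DMSO libraries. BCL6, the repressor that maintains the germinal centre state, was 106 and 109 FPKM with DMSO, 92.3 in GSK343 library 1 and 268 in library 2, and did not pass (limma adjusted p = 0.262).

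Of 21 germinal centre B cell genes 6 were called higher and 5 lower, and of 20 plasma cell genes 5 were called in each direction. The lower shares, 23.8% and 25%, were near the 20.2% of all genes, and the higher shares were 28.6% and 25% against 12.9%. Without DMSO library 1 these counts were 4 and 3, and 3 and 2. LMO2, a transcription cofactor of germinal centre cells, rose from 2.45 and 2.36 FPKM to 6.05 and 12.5, while MME, which encodes CD10, fell from 9.26 and 8.57 to 5.45 and 5.56. The sphingosine receptor S1PR2, which keeps cells in the follicle, fell from 22.9 and 23.1 FPKM to 13.5 and 7.85. On the plasma cell side SLAMF7 rose from 6.88 and 6.75 to 25.7 and 14.5, and DERL3, a factor of protein export from the endoplasmic reticulum, fell from 21.9 and 22.2 to 11.9 and 6.08. IRF4 was 56.8 and 62.0 FPKM with DMSO and 68.0 and 112 with GSK343. It was called higher (log2 difference 0.55, limma adjusted p = 0.0426), but not without either DMSO library or without GSK343 library 2.

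Memory and activation genes were mostly higher. Of 14 genes 9 were called higher (64.3%, background 12.9%) and 1 lower (7.14%, background 20.2%). With Pfeiffer fitted alone the counts were 2 and 0. The medians were 0.59 in library 1 and 0.70 in library 2. CD44, an adhesion receptor of activated and memory lymphocytes, was 321 and 372 FPKM with DMSO and 724 and 821 with GSK343 (log2 difference 1.16, SE 0.103, limma adjusted p = 2.76e-05). CCR7, the chemokine receptor that guides cells toward the T cell zone, was 12.5 and 14.2 with DMSO, 130 in GSK343 library 1 and 37.9 in library 2 (2.32, SE 0.404, limma adjusted p = 0.00188). CCR7 was picked for a rise in both libraries, and its 2 GSK343 values differed more than 3-fold from each other. The costimulatory gene CD80 was 0.645 and 0.381 with DMSO and 1.47 and 2.65 with GSK343, and it had to be higher, since it reached the limit only through the GSK343 libraries. The survival receptor TNFRSF13C rose from 1.46 and 1.66 to 3.46 and 4.50.

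Among positioning and adhesion genes, CXCR4, the receptor of germinal centre dark zone cells, fell from 167 and 166 FPKM to 101 and 92.6. CXCR5, which draws B cells into follicles, rose from 38.7 and 43.9 to 71.2 and 70.2, and the adhesion gene ICAM2 fell from 51.0 and 56.5 to 21.7 and 26.6. Of 21 such genes 6 were called higher and 3 lower (3 and 3 without DMSO library 1). The shares were 28.6% and 14.3%, against 12.9% and 20.2% of all genes. LSP1, an actin-binding protein of migrating leukocytes, was among the 15 highest shared changes, at 14.2 and 12.2 FPKM with DMSO and 63.9 and 46.5 with GSK343. CHST2, a sulfotransferase, was 6.36 and 6.83 with DMSO and 29.9 and 30.3 with GSK343.

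Of 30 B cell identity and receptor signalling genes 7 were called higher (23.3%, background 12.9%) and 3 lower (10%, background 20.2%), and 20 were not called, among them PAX5, MS4A1, CD79A and CD79B. Without DMSO library 1 the counts were 3 and 2. The list median was -0.09 in library 1 and 0.24 in library 2. VPREB3, a surrogate light chain-related gene, fell from 55.6 and 55.5 FPKM to 18.7 and 34.0, PIK3AP1, an adaptor for PI3-kinase, from 36.0 and 41.5 to 26.0 and 23.8, and FCRLA rose from 9.39 and 8.90 to 14.1 and 25.7. The immunoglobulin light chain segment IGLJ1, listed at or near 0 with DMSO, was 12.2 and 11.7 FPKM with GSK343; it reached the limit only through the GSK343 libraries, and FPKM is uncertain for so short a segment.

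Some antigen presentation genes rose, and most were not called. HLA-E was 106 and 107 FPKM with DMSO and 200 and 155 with GSK343. HLA-B was 739 and 799 with DMSO and 1330 and 1150 with GSK343. Both rose, by 0.72 and 0.69 on the log2 scale (limma adjusted p = 0.00122 and 0.00442). Of 21 MHC class I presentation genes 7 were called higher (33.3%, background 12.9%), 2 lower (9.52%, background 20.2%) and 12 neither way. Their median log2 difference was 0.05. Of 18 MHC class II genes 6 were called higher (33.3%, background 12.9%), 0 lower (background 20.2%) and 12 neither way, with a median of 0.30. Without DMSO library 1 the higher counts were 4 and 3, and with Pfeiffer fitted alone limma called 0 of either list, 9 and 3 having an unadjusted p under 0.05. B2M, the light chain of class I molecules, was 3440 and 3150 with DMSO and 4500 and 2430 with GSK343 and was not called. HLA-DOB, a modulator of class II loading, rose from 3.80 and 3.62 to 6.36 and 9.43. HLA genes resemble each other and can share reads.

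NF-kappaB genes were called higher more often than lower, 12 against 3 of 29 (41.4% and 10.3%, against 12.9% and 20.2% of all genes). With Pfeiffer fitted alone limma called 1, and 11 had an unadjusted p under 0.05. The medians were 0.25 in library 1 and 0.31 in library 2. STAT5A, a cytokine-activated transcription factor, was 3.14 and 3.11 FPKM with DMSO and 7.93 and 9.79 with GSK343. NFKBIZ, an inducible cofactor of NF-kappaB, rose from 27.6 and 26.2 to 45.4 and 67.7, and BCL2A1, a survival factor, fell from 364 and 317 to 231 and 209. CFLAR, an inhibitor of death receptor signalling, rose from 96.7 and 84.1 to 133 and 183.

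Of 27 BCL2 family and death receptor genes 6 were called higher and 5 lower (3 and 2 without DMSO library 1). Among the 6, 1 reached the limit on low values only through the GSK343 libraries and so had to be higher. The lower share of 18.5% was near the 20.2% of all genes. BMF, a death-promoting BH3-only gene, rose from 3.03 and 3.94 FPKM to 25.9 in library 1 and 8.44 in library 2. The death receptor FAS rose from 3.21 and 2.93 to 6.01 and 7.38. BCL2L11, which encodes BIM, rose from 77.2 and 82.0 to 99.6 and 131, a call lost without DMSO library 1 (limma adjusted p 0.00634 with all libraries). Of 23 p53 target genes 9 were called higher (39.1%, background 12.9%) and 4 lower (17.4%, near the 20.2% of all genes). TP53INP1, given above, is 1 of the 9 and had to be higher. BTG2, which slows division, rose from 37.0 and 36.3 to 85.8 and 115, while the damage sensor DDB2 fell from 12.1 and 11.6 to 6.83 and 5.72.

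Interferon-stimulated genes rose in part of the list, and the 2 GSK343 libraries differed in how far. Of 71 listed genes 53 reached the limit on low values. Of these 25 were called higher (47.2%, background 12.9%) and 1, TRIM14, lower (1.89%, background 20.2%). Among the 25, 4 reached the limit only through the GSK343 libraries and so had to be higher. The list median was 1.14 in library 1 and 0.34 in library 2, and the value was higher in library 1 for 47 of the 53. At least 2-fold above DMSO were 29 genes in library 1 and 4 in library 2, and those 4, IFI35, PARP12, LY6E and HELZ2, were 2-fold higher in both. In library 1, 51 of the 53 lay above both DMSO libraries and 1 below both, and in library 2 these counts were 33 and 11. The summed level was 843 and 851 FPKM with DMSO, 1880 in library 1 and 1020 in library 2. With Pfeiffer fitted alone 5 of the 53 were called, and without DMSO library 1 or 2 the higher counts were 17 and 20.

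Genes shared by both libraries were led by LY6E, a membrane protein that affects viral entry, at 9.50 and 9.10 FPKM with DMSO and 35.8 and 22.0 with GSK343 (log2 difference 1.50, SE 0.206, limma adjusted p = 0.00045), and HELZ2, a helicase-like coactivator, at 1.21 and 1.72 with DMSO and 8.4 and 4.6 with GSK343 (1.56, SE 0.201, limma adjusted p = 0.000299). IRF9, the DNA-binding part of the interferon-activated complex, rose from 18.3 and 19.8 to 54.7 and 29.9. Its partner STAT2 rose from 26.3 and 25.9 to 44.0 and 38.7. The negative regulator SOCS1 rose from 1.22 and 1.57 to 3.99 and 2.80.

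Some interferon-stimulated genes were higher in library 1 alone. IFI27 was 1.02 and 1.11 FPKM with DMSO, 22.6 in GSK343 library 1 and 1.08 in library 2. OAS2, an enzyme that senses double-stranded RNA, was 5.32 and 5.0 with DMSO, 35.6 in library 1 and 4.33 in library 2. Library 2 lay among or near the DMSO libraries for both genes, and neither was called (limma adjusted p = 0.116 and 0.176). Both were picked for a change in library 1 alone, which by itself makes a call less likely. In all, 11 of the 53 were at least 2-fold higher in library 1 and within 0.3 of the DMSO mean on the log2 scale in library 2. Of 24 interferon receptor, JAK, STAT, IRF and SOCS genes 13 were called higher (54.2%, background 12.9%) and 1 lower (4.17%, background 20.2%). With Pfeiffer fitted alone the counts were 1 and 0. The medians were 0.25 and 0.37 in the 2 libraries. Among the 13, 1 reached the limit on low values only through the GSK343 libraries and so had to be higher.

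Interferon acts on these genes through the ISRE, a repeat of TTTC and TTTC separated by 2 bases. The promoters of PARP12 and PARP14 (RefSeq, GRCh38.p14; minus strand of chr7:140062902-140063201 and plus strand of chr3:122680589-122680888) show it in capitals, with PARP14 carrying it on the opposite strand.
PARP12: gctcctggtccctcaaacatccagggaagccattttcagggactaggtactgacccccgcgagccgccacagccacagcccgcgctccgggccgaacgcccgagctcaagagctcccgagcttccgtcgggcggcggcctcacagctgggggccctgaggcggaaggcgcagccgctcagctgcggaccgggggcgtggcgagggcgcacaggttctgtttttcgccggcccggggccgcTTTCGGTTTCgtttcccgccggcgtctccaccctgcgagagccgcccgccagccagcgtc
PARP14: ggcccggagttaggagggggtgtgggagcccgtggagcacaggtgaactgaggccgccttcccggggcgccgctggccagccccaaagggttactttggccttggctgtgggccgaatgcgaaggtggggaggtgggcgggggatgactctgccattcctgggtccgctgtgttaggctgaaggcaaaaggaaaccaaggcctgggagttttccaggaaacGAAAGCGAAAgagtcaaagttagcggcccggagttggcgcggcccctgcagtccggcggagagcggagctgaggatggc
The repeat was found on either strand in 25 of 41 interferon-stimulated promoters (61.0%), against 2.71% of those of the genes described and 3.65% of all promoters in the table. The 41 include genes that were not called. Among genes at least 2-fold higher in both GSK343 libraries 3 of 100 promoters held it (3.0%), near the share of the genes described. PARP12 was 3.28 and 3.44 FPKM with DMSO and 9.29 and 9.47 with GSK343, nearly equal in both GSK343 libraries.

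Cholesterol biosynthesis genes were lower mainly in library 2. Of 25 genes 9 were called lower (36%, against 20.2% of all genes and 47.8% of housekeeping genes) and 0 higher. The pooled median log2 difference was -0.61, against -0.35 for housekeeping genes. With Pfeiffer fitted alone limma called 0, and 5 had an unadjusted p under 0.05. The median was -0.18 in library 1 and -1.04 in library 2, 24 of the 25 were lower in library 2 than in library 1, and 15 were at least 2-fold below DMSO in library 2 against 0 in library 1. HMGCS1, which makes the precursor of mevalonate, was 132 and 121 FPKM with DMSO, 79.8 in library 1 and 40.9 in library 2 (log2 difference -1.13, limma adjusted p = 0.00424). ACAT2, which joins 2 acetyl units at the start of the pathway, was 126 and 125 with DMSO, 107 and 28.0 with GSK343, and missed the threshold (limma adjusted p = 0.0627). NSDHL and DHCR7, enzymes of the late steps, were above both DMSO libraries in library 1 and below both in library 2: NSDHL was 30.6 and 31.0 with DMSO, 41.9 and 14.2 with GSK343, and DHCR7 was 54.9 and 59.4 with DMSO, 71.6 and 28.5 with GSK343. The summed level of the list was 1820 FPKM in each DMSO library, 1640 in library 1 and 841 in library 2. After quantile normalization 2 genes were called higher and 4 lower.

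Of 10 cholesterol efflux and LXR-linked genes 3 were called higher (30%, background 12.9%), 1 lower (10%, background 20.2%) and 6 neither way. The median log2 difference was 0.07, with 0.21 in library 1 and -0.03 in library 2. Among the 3 were the sterol exporter genes ABCA1 and ABCG1, which LXR receptors control, higher in both libraries. ABCG1 rose from 3.76 and 3.97 FPKM to 10.1 and 13.7, and ABCA1 from 1.15 and 1.23 to 3.78 and 9.02 (log2 differences 1.39 and 1.66, limma adjusted p = 2.16e-05 and 0.000976). SOAT1, which esterifies cholesterol for storage, fell from 24.3 and 25 to 14.3 and 12.6. Of 18 fatty acid synthesis genes 2 were called higher and 5 lower (1 and 3 without DMSO library 1, 2 and 2 after quantile normalization). The shares were 11.1% and 27.8%, against 12.9% and 20.2% of all genes. LPIN1, a phosphatidate phosphatase and coregulator, rose from 1.64 and 1.65 to 4.42 and 5.36, and ACACA, the first enzyme of the pathway, fell from 34.4 and 33.9 to 25.6 and 25.

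Amino acid response genes under the factor ATF4 split the other way. The list median was -0.74 in library 1 and 0.18 in library 2; 24 of 25 genes were below both DMSO libraries in library 1, and 16 were above both in library 2. CBS, which makes cystathionine, was 12.2 and 14.7 FPKM with DMSO, 2.67 in library 1 and 24.5 in library 2. The serine synthesis genes PHGDH and PSAT1 were 115 and 123, and 72.9 and 74.2, with DMSO; in library 1 they were 39.5 and 23.4, and in library 2 106 and 103. The amino acid transporter SLC7A5 was 59.2 and 66.4 with DMSO, 26.7 in library 1 and 102 in library 2. None of these 4 was called (limma adjusted p = 0.531, 0.0663, 0.4 and 0.703 in the order named). Of the list, DDIT3, SLC1A5, CEBPG and AARS were called lower and 0 genes higher. The lower share of 16% was under the 20.2% of all genes. DDIT3, which encodes CHOP, was 14.4 and 13.9 with DMSO and 8.25 and 7.13 with GSK343.

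Chaperones of the endoplasmic reticulum were lower mainly in library 2. HSPA5, which encodes BiP, was 289 and 290 FPKM with DMSO, 272 in library 1 and 95.5 in library 2 and was not called (limma adjusted p = 0.0848), while MANF fell from 156 and 151 to 113 and 42.5. Of 21 unfolded protein response genes 7 were called lower and 1 higher (3 and 0 without either DMSO library). Of 22 heat shock genes 11 were called lower and 2 higher (4 and 1 without DMSO library 1, 6 and 1 without DMSO library 2). The mitochondrial chaperone HSPD1 fell evenly, from 293 and 307 to 188 and 197.

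Among glycolysis genes, LDHA, which reduces pyruvate to lactate, fell from 751 and 733 FPKM to 464 and 292, and ENO2 from 28.1 and 29.3 to 12.5 and 14.2. Of 22 glycolysis and glucose transport genes 8 were called lower and 0 higher (5 and 2 lower without DMSO library 1 or 2); with median scaling 2 were higher and 6 lower. Of 37 nuclear-encoded respiratory chain genes 8 were called lower (21.6%, near the 20.2% of all genes) and 0 higher, and without DMSO library 2 the count was 4. Without DMSO library 1 limma called 0, and 7 had an unadjusted p under 0.05. Of 23 housekeeping genes 11 were called lower (47.8%, against 20.2% of all genes) and 1 higher, with a median log2 difference of -0.35. Their lower count was 4 without DMSO library 1 and 5 without DMSO library 2. Lower shares were 36.4% for glycolysis, 33.3% for unfolded protein response and 50% for heat shock genes, with medians of -0.22, -0.32 and -0.54. The respiratory chain median was -0.36. These lists therefore did not stand clearly apart from the housekeeping genes. HPRT1, a purine salvage enzyme, fell from 78.1 and 74.6 to 38.9 and 19.9.

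Lysosomal genes were called higher more often than lower, 12 against 2 of 31 (38.7% and 6.45%, against 12.9% and 20.2% of all genes). With Pfeiffer fitted alone the counts were 3 and 0. The medians were 0.31 in library 1 and 0.27 in library 2. The protease gene CTSB was 14.7 and 14.9 FPKM with DMSO and 41.6 and 46.3 with GSK343 (log2 difference 1.51, SE 0.0919, limma adjusted p = 3.23e-06). PSAP, the precursor of the saposins that aid lipid breakdown, rose from 39.3 and 42.8 to 75.1 and 87.4, and the peptidase gene TPP1 from 19.9 and 22.9 to 38.9 in both libraries.

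**Figure D3:**
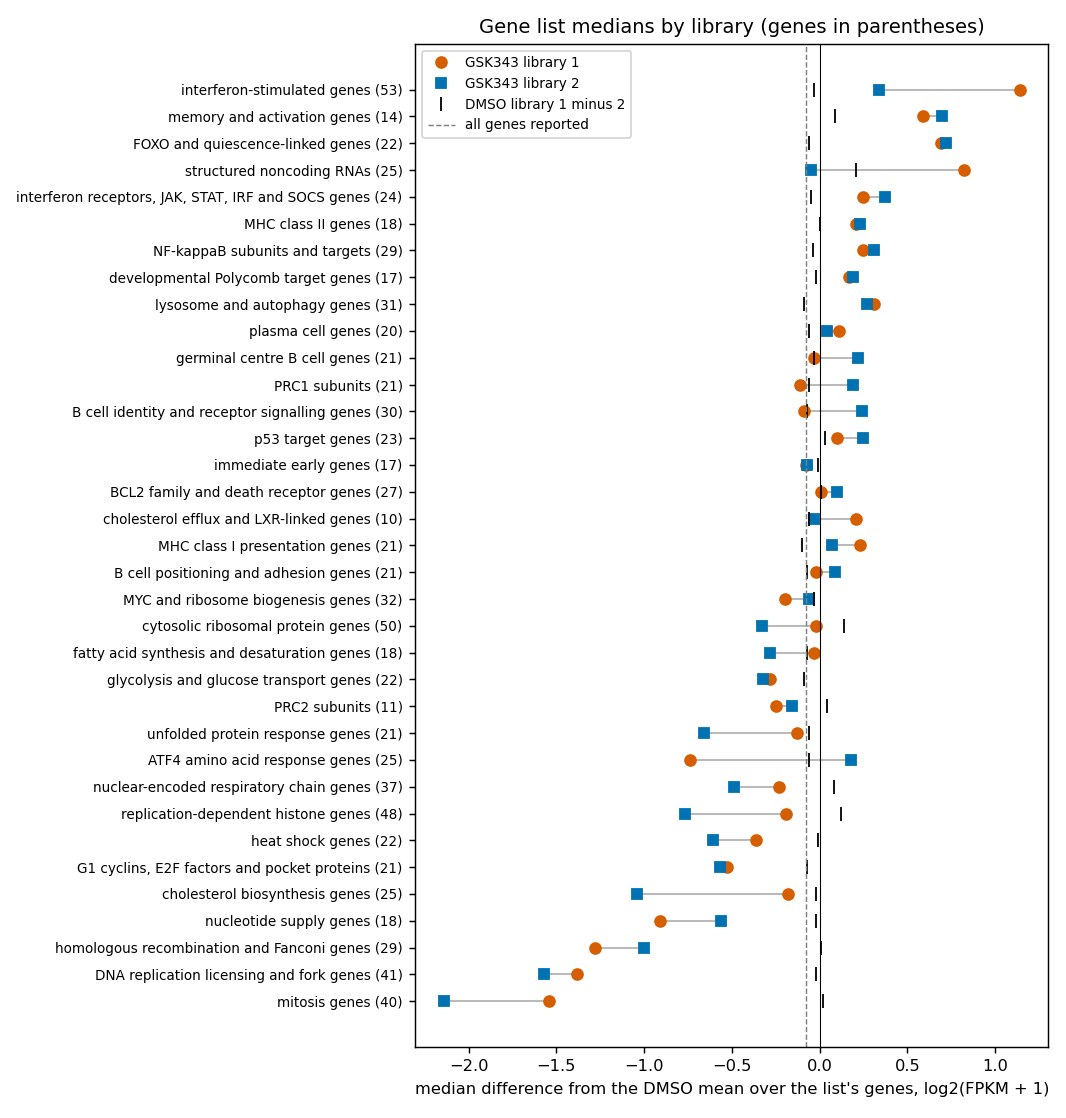
Median difference from the DMSO mean over the genes of each list shown, in GSK343 library 1 (circles) and library 2 (squares), on log2(FPKM + 1). A tick is the median difference between the 2 DMSO libraries, the dashed line is the median of all genes described (-0.08) and numbers in parentheses are genes. Lists with few genes and the marker and housekeeping lists are left out. The housekeeping medians were -0.34 in library 1 and -0.44 in library 2. Replication, mitosis and recombination lists lie at -1.0 or below in both libraries, and the interferon, cholesterol, amino acid and structured RNA lists have the 2 libraries far apart.

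Some genes were changed in 1 GSK343 library and stayed within 0.3 of the DMSO mean on the log2 scale in the other. For library 1 these were 70 genes at least 2-fold higher (6 called) and 42 at least 2-fold lower (6 called), and for library 2 148 higher (44 called) and 97 lower (15 called). Outside the interferon list, library 1 showed CYP1A1, a target of the aryl hydrocarbon receptor, at 33.4 FPKM against 4.24 and 4.45 with DMSO and 4.30 in library 2. The receptor gene AHR itself was higher in both, at 4.05 and 3.55 with DMSO and 21.7 and 9.93 with GSK343. Library 2 showed the cytokine gene IL16 at 29.6 FPKM against 5.72 and 6.76 with DMSO and 6.84 in library 1, the lipid transporter gene ABCA8 at 12.6 against 1.89, 1.34 and 2.12, and ASS1, the enzyme that makes argininosuccinate, at 28.0 against 5.38, 6.73 and 5.53. None of CYP1A1, IL16, ABCA8 and ASS1 was called over both libraries (limma adjusted p = 0.117, 0.0931, 0.0591 and 0.159). Picking genes changed in 1 library only shrinks the pooled difference and widens the spread, so this follows in part from the selection.

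Opposite changes of at least 1.5-fold were seen in 33 genes higher in library 1 and lower in library 2, and in 31 the other way. Picking genes this way draws the pooled difference toward 0 and widens the spread. That limma called 0 of them, with 0 at an unadjusted p under 0.05, therefore follows from the selection. CSTA, a cysteine protease inhibitor, was 2.76 and 2.13 FPKM with DMSO, 0.918 in library 1 and 18.2 in library 2. UGT2B17, a steroid glucuronidating enzyme, was 8.70 and 8.39 with DMSO, 37.1 in library 1 and 4.62 in library 2. BCAT1, a branched-chain amino acid transaminase, was 6.47 and 6.74 with DMSO, 3.33 in library 1 and 18.2 in library 2. CDKN1A and CBS, given above, belong to the same set.

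**Figure D4:**
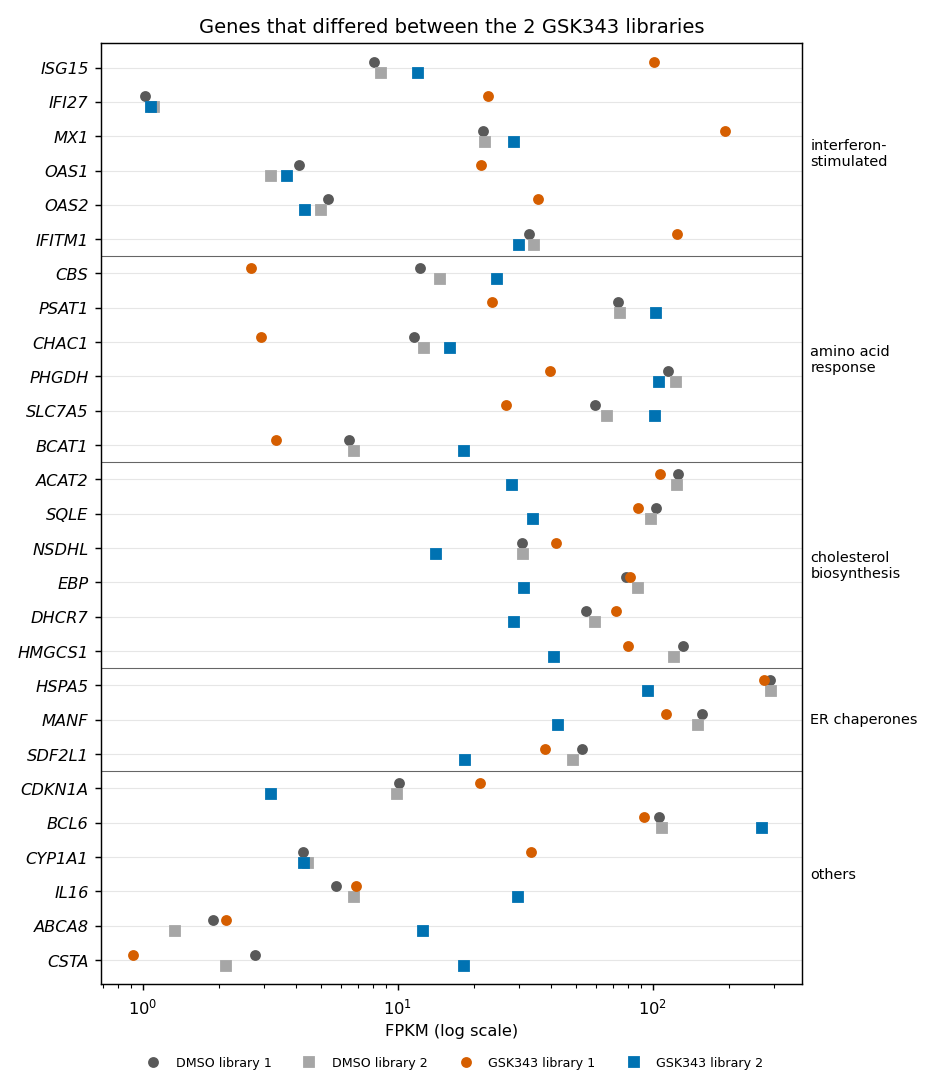
FPKM of 27 genes in each of the 4 Pfeiffer libraries on a log axis, with grey marks for DMSO and coloured marks for GSK343 (circle, library 1; square, library 2). The 2 coloured marks lie far apart in these rows, as for IFI27 (22.6 and 1.08) and CBS (2.67 and 24.5); 12 of the genes (ISG15, MX1, PSAT1, CHAC1, SLC7A5, ACAT2, SQLE, NSDHL, EBP, DHCR7, HSPA5 and MANF) were added after their values were seen.

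The lowest values found in library 2 alone came from 1 stretch of the genome. There, 7 adjoining genes in chr1:564442-570302 (hg19), a nuclear copy of mitochondrial DNA, were listed at exactly 0 in GSK343 library 2. Their summed level was 7220 and 8370 FPKM with DMSO and 8330 in GSK343 library 1, which is 1.15%, 1.37% and 1.41% of those libraries' FPKM sums. MTND2P28, 1 of them, was 450 and 505 with DMSO and 500 in library 1, and MTATP6P1, another, was 1150 and 1600 with DMSO and 1440 in library 1. Such a 0 may be an estimate that failed, so no fold is given. All 37 genes on the mitochondrial chromosome were listed at 0 in every library.

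Other genes among the highest shared changes were TYMP, CCR7, IGFBP4, EEF1A2, TRIB1 and 2 noncoding transcripts. TYMP, which cleaves thymidine, was 1.32 and 1.22 FPKM with DMSO and 13.9 and 8.93 with GSK343 (log2 difference 2.42, SE 0.195, limma adjusted p = 1.49e-05). IGFBP4, which binds insulin-like growth factors, was 2.12 and 2.02 with DMSO, 22.2 in library 1 and 6.30 in library 2, and EEF1A2, a tissue-restricted elongation factor, was 1.90 and 2.73 with DMSO, 7.36 in library 1 and 20.2 in library 2. The rule that picked these 3 genes required both GSK343 values above both DMSO values, and the order of the 2 GSK343 libraries differed among them. KRT5, an epithelial keratin, rose from 1.39 and 2.05 to 6.86 and 6.64, and EPCAM fell by 1.21 on the log2 scale. The long noncoding RNA NEAT1 rose from 82.6 and 68.2 to 184 and 157.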

How the data were processed

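RNA sequencing gave 2 DMSO and 2 GSK343 libraries of Pfeiffer within a series of 12 libraries. The authors deposited 1 table of FPKM values with 63129 rows. Per the submitters' processing notes, the aligner was TopHat 1.4.1, the build hg19 and the quantifier Cufflinks; its version, the annotation and the handling of strand are not stated there. Antisense and overlapping genes are therefore uncertain, as are pseudogenes and gene families that share reads. FPKM is relative within a library: an abundant transcript lowers all others. Depth is unknown, so no counting interval is given.

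Groups and columns followed the sample labels, and 77 rows with a missing value were left out. Values were taken as log2(FPKM + 1). A gene entered the test when 2 or more of the 12 libraries reached 1 FPKM (18731 genes). The 5 groups shared 1 limma fit (version 3.58.1, R 4.3.3, with an intensity trend; residual degrees of freedom 7, prior 3.45), with Benjamini-Hochberg adjustment over all genes and a threshold of 0.05. Genes described are those that reached 1 FPKM in 2 or more Pfeiffer libraries. Where the GSK343 libraries disagree on a gene, its standard error grows. The fit was tested on simulated data in which each gene had the same spread in every group. That test cannot show how calls fare where the GSK343 libraries spread more than the DMSO libraries. Gene classes came from GENCODE 29, which matched 15631 of the genes described, and promoters from RefSeq.

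The comparison, gene lists and rule for named genes were chosen with earlier results of these data known. The rule took 14 fixed genes and the 15 highest and 15 lowest called genes at least 2-fold changed in both GSK343 libraries. Those highest and lowest genes had both GSK343 values on the same side of both DMSO values and averaged 5 FPKM or more in the higher group. It also took the 8 highest and 8 lowest changed in 1 library and within 0.3 (log2) in the other, and up to 8 changed in opposite directions. The 4 members of each list with the smallest adjusted p were taken as well. Some of these are not described, and a few genes are not reported here. Genes outside the rule named in the text were chosen after their values were seen: members of the lists, and IL4, AHR, NEAT1 and HIST1H2BK. Alternatives were the Pfeiffer libraries alone, a pseudocount of 0.1 FPKM, no filter, a minimum of 5 FPKM, 3 other scalings, a replicate block and leaving out each library.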

Additional observations from a re-analysis of the deposited data

How the results depend on the processing

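With the 4 Pfeiffer libraries fitted alone, 257 genes were called higher and 552 lower, and 808 of these 809 calls were also made with all libraries. A minimum of 5 FPKM left 1109 genes called higher and 94 at least 2-fold higher in both GSK343 libraries, with fewer genes tested. A pseudocount of 0.1 FPKM raised the genes at least 2-fold higher in both to 435. Among protein-coding genes rescaled to 1 sum, 1552 were called lower and 204 were at least 2-fold lower in both, with fewer genes tested; there the median of the histone list turned from -0.41 to 0.03, and with a minimum of 5 FPKM it turned to 0.67, with 22 and 11 of 48 genes tested. Leaving out 1 library at a time, the genes called higher ran from 1167 to 3890 and those called lower from 1785 to 4181. No filter gave 3021 higher and 3097 lower. Log2 differences of opposite sign in library 1 and library 2 alone were -1.86 and 0.27 for PTAFR, -1.63 and 0.29 for STC2, -1.45 and 0.28 for ABHD3, -1.97 and 0.83 for CBS, 2.00 and -0.77 for UGT2B17, 1.48 and -1.03 for CLECL1, 1.01 and -1.40 for CDKN1A, -0.29 and 1.96 for FAM65B, -0.84 and 2.48 for CSTA, -1.07 and 1.36 for GUCA1A and -0.81 and 1.33 for BCAT1. Of 222 named genes, 91 calls were lost with Pfeiffer fitted alone. Both fits give the same log2 differences, so no sign could reverse. Same-numbered DMSO and GSK343 libraries share only a number (correlation of their deviations 0.148); with the number as a replicate block 1974 genes were called higher and 2924 lower. Depth is unknown, so differences of genes near 1 FPKM cannot be set against counting error.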
